A study of Rattus norvegicus with 16 samples.

Results

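Adult female offspring of dams fed a high-fat diet were compared with adult female offspring of control dams, by cytosine methylation in the amygdala at postnatal day 90 (P90). The comparison used 6 of the 16 libraries of the study, 4 from the high-fat group (replicates 1 to 4) and 2 from the control group (replicates 3 and 4). The controls were those whose titles carry sequencing lane 5 or 6. All animals were Long-Evans rats. The high-fat dams ate their diet from before mating until the end of lactation, and the daughters never ate it themselves; all P90 offspring of both groups were weaned onto control diet. Control replicate 3 was on lane 5, and control replicate 4 and the 4 high-fat libraries were on lane 6. Control P90 replicates 1 and 2, whose titles carry no lane, stayed out of the comparison and served to sort sites and bins by level. The labels do not tie libraries to dams or litters, so p-values measure the spread between these libraries, which may be technical. The amygdala was microdissected whole, and its cell makeup was not analysed here, so a change within cells and a change in their proportions cannot be told apart.

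In mammals a methyl group is placed mainly on cytosines that precede a guanine (CpG sites), and the mark is copied at cell division. Most CpGs of a brain genome are highly methylated, while dense CpG islands at gene starts are usually free of the mark. The amygdala takes part in fear, anxiety and the valuation of food. A maternal high-fat diet is studied as an early-life exposure that could leave lasting marks of this kind in the brain of the offspring. The libraries were made by reduced representation bisulfite sequencing, which reads CpG-rich fragments. At each site it gives the share of reads whose cytosine stayed unconverted, which are counted as methylated.

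The 6 libraries read largely different sites. The high-fat libraries held 119482 to 226958 sites with at least 10 reads, and the controls 479826 and 246443. Of 1049902 sites read that often in any of the 6, 1122 were read that often in all of them. Any 2 libraries shared 13200 to 81391 sites, which was 7.66% to 35.9% of a library's sites, and the levels of the shared sites correlated across sites with r of 0.311 to 0.479. The median number of reads at these sites was 79, 102, 41 and 78 in high-fat replicates 1 to 4 and 33 and 42 in the controls. The files list only sites with at least 1 methylated read, so a deeply read site of low methylation enters a list more easily than a thinly read one. For these reasons sites were pooled: each library's value in a bin was the mean methylation level of its sites with at least 10 reads, over the 500 bins of 100 kb and the 1648 bins of 1 Mb in which every one of the 6 libraries had at least 20 such sites.

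No change of the average level with maternal diet was detectable over these bins. Over the 100 kb bins, mean methylation was 86.7%, 86.6%, 88.3% and 86.2% in high-fat replicates 1 to 4 and 86.8% and 86.6% in control replicates 3 and 4. The controls lay inside the range of the high-fat libraries. The group means were 87.0% ± 0.943 (SD, n = 4) and 86.7% ± 0.0931 (SD, n = 2), a difference of 0.276 percentage points (two-sided exact permutation test, p = 0.933). Over the 1 Mb bins the high-fat libraries had 88.6%, 87.1%, 91.7% and 87.0% and the controls 89.7% and 89.7%. High-fat replicate 3 stood above both controls and the other three high-fat libraries below them. The difference there was -1.10 points, from 88.6% ± 2.15 (SD, n = 4) to 89.7% ± 0.0496 (SD, n = 2), with an exact permutation p of 0.467. With 4 against 2 libraries there are 15 splits and the smallest p is 0.0667, so no single value of this kind could pass 0.05. Within lane 6, with control replicate 4 alone, the differences were 0.341 and -1.07 points. Control P90 replicates 1 and 2 stood far from all 6 libraries, at 65.6% and 65.1% over the 100 kb bins and 68.7% and 68.1% over the 1 Mb bins.

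**Figure D1:**
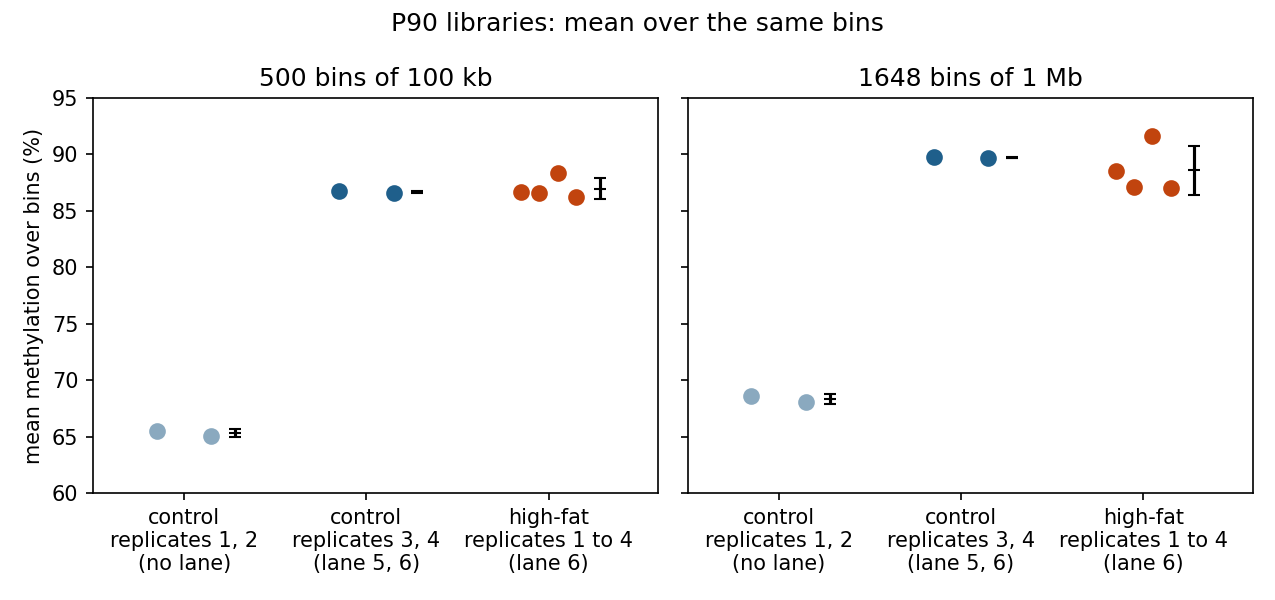
Mean methylation (%) of each P90 library over the 100 kb bins and the 1 Mb bins; each point is 1 library, by group, and the bars beside them are the group mean ± SD, on an axis from 60% to 95%. The 4 high-fat libraries span 86.2% to 88.3% over 100 kb bins and 87.0% to 91.7% over 1 Mb bins and enclose both lane-labelled controls.

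No single bin passed the test at an adjusted p of 0.05. Of 500 bins of 100 kb, limma with Benjamini-Hochberg adjustment called 0 (0%), with 16 higher and 4 lower in the high-fat group at an unadjusted p under 0.05 and a smallest adjusted p of 0.662. Of 1648 bins of 1 Mb it also called 0 (0%), with 12 higher and 19 lower unadjusted and a smallest adjusted p of 0.999. A quasi-binomial logistic model called 0 in both sizes (36 and 62 unadjusted), and so did edgeR's quasi-likelihood test on the counts (13 and 20 unadjusted). All 4 high-fat libraries lay above both controls in 36 bins of 100 kb (7.2%) and below both in 19 (3.8%). For 1 Mb bins these were 45 (2.73%) and 132 (8.01%). Without control replicate 4, limma called 1 bin of 100 kb, which is described below.

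The differences of single bins spread evenly about 0 at 100 kb and leaned lower at 1 Mb. At 100 kb the median difference was 0.03 points, the middle of the distribution ran from -2.44 to 3.00 (quartiles), the extremes were -21.0 and 20.5, and 252 bins were positive. At 1 Mb the median was -0.846 points with quartiles of -2.93 and 0.945, the extremes were -14.0 and 14.3, and 618 bins (37.5%) were positive. The precision limits what these values can show. The 95% interval of a bin's difference reached a median of 9.14 points to either side at 100 kb and 7.10 points at 1 Mb. It lay wholly within 10 points of 0 in 142 bins of 100 kb (28.4%) and 985 of 1 Mb (59.8%), and within 20 points in 463 (92.6%) and 1599 (97.0%). A difference of over 20 points was thus outside the interval of most bins, while one of 5 points was not detectable in most at this precision.

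**Figure D2:**
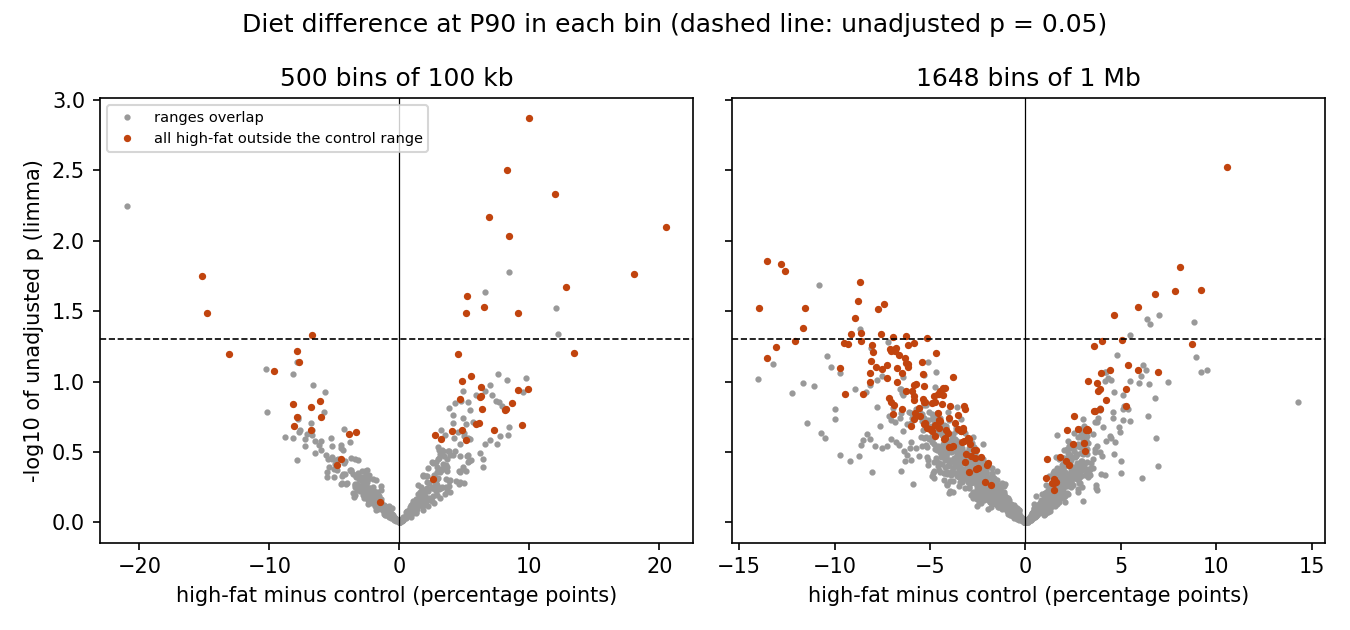
Difference in mean methylation (percentage points, high-fat minus control) of each bin against its unadjusted p from limma on a -log10 axis, for 100 kb bins and 1 Mb bins; each point is 1 bin, orange where all high-fat libraries lie outside the control range. The 100 kb points centre on 0.03, the 1 Mb points on -0.846, and none passed adjustment.

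Although none passed, the 5 bins with the smallest p in each direction are given with the value of every library. They were chosen by p and not by size, so at 1 Mb they do not include the largest differences. These values chose the bins, so their size supports nothing further. Among higher bins of 100 kb, the smallest p fell on chromosome 3, 171800001 to 171900000 (coordinates of Rnor_6.0). The high-fat libraries had 97.1%, 99.9%, 99.8% and 97.2% there and the controls 92.0% and 85.2%, so the groups did not overlap. The difference was 9.93 points (95% interval 4.12 to 15.7, limma adjusted p = 0.662), from 23 to 93 sites per library. In the bin on chromosome 5, 155300001 to 155400000, the high-fat libraries had 96.6%, 99.7%, 99.9% and 98.5% and the controls 92.7% and 88.2%. In both bins the high-fat libraries were nearly fully methylated, and control P90 replicates 1 and 2 had 82.0% and 82.7% in the former and 76.8% and 76.9% in the latter.

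The other three higher bins of 100 kb differed in level. On chromosome 2, 196300001 to 196400000, the high-fat libraries had 90.1%, 96.4%, 93.7% and 99.9% and the controls 83.4% and 82.7%, a difference of 11.98 points. On chromosome 12, 300001 to 400000, near the start of the chromosome, they had 66.5%, 71.0%, 63.3% and 74.6% against 55.6% and 41.1%. This bin had the highest of the 500 differences, 20.5 points, with an interval of 5.70 to 35.3. On chromosome 20, 9300001 to 9400000, the high-fat libraries had 99.8%, 99.6%, 99.8% and 99.5%, control replicate 4 had 97.9% and control replicate 3 had 87.6%. Here the control of lane 6 nearly met the high-fat libraries. The difference was 6.91 points with all libraries (adjusted p = 0.662), 12.03 points without control replicate 4 (limma adjusted p = 0.0115, with 1 control left) and 1.79 points without control replicate 3. Over all alternatives its adjusted p ran from 0.0115 to 0.999.

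In 2 of the 5 lower bins of 100 kb the high-fat libraries differed widely among themselves. On chromosome 5, 127400001 to 127500000, which had the lowest of the 500 differences, the high-fat libraries had 91.0%, 59.5%, 78.1% and 60.6% and the controls 90.7% and 95.9%. High-fat replicate 1 lay between the controls, and the SD of the high-fat group was 15.1 points against a difference of -21.0 points (95% interval -35.4 to -6.59, limma adjusted p = 0.662). On chromosome 7, 116700001 to 116800000, the high-fat libraries had 86.8%, 78.8%, 82.5% and 61.3%, with an SD of 11.2 points, and the controls 90.6% and 94.5%. On chromosome 1, 101300001 to 101400000, they had 66.8%, 74.1%, 74.7% and 69.0% against 88.6% and 83.2%, a difference of -14.8 points (adjusted p = 0.912) with the high-fat libraries within 8 points of each other. The other two, on chromosome 12, 31500001 to 31600000, and on chromosome 7, 117300001 to 117400000, differed by -6.76 and -7.86 points, the latter also without passing 0.05 unadjusted.

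At 1 Mb the bin with the smallest p was on the X chromosome. On chromosome X, 128000001 to 129000000, the high-fat libraries had 99.7%, 99.0%, 99.9% and 92.6% and the controls 90.4% and 84.1%, a difference of 10.5 points (95% interval 4.43 to 16.7, limma adjusted p = 0.999). A second X bin, 73000001 to 74000000, had 86.9%, 95.5%, 91.6% and 86.7% against 82.7% and 79.2%. Neither overlapped between groups. The remaining higher bins lay on chromosome 2, 208000001 to 209000000 (8.11 points), chromosome 2, 224000001 to 225000000 (7.84 points), and chromosome 4, 144000001 to 145000000 (6.78 points).

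Lower bins of 1 Mb included one that adjoins a higher bin. On chromosome 2, the megabase from 225000001 to 226000000 had 81.5%, 74.6%, 85.9% and 72.5% in the high-fat libraries and 92.6% and 90.2% in the controls, a difference of -12.8 points, right beside the megabase from 224000001, where the high-fat libraries had 94.7%, 91.6%, 98.1% and 96.1% and the controls 91.5% and 83.1%. The pair moved in opposite directions. Over sites that control replicates 1 and 2 had also read, the difference of the bin from 225000001 turned to 0.50 points. With the level of those controls subtracted at these sites it stayed negative, at -1.85 points. On chromosome 7, 78000001 to 79000000, the high-fat libraries had 79.6%, 73.6%, 82.6% and 69.0% and the controls 90.6% and 88.9%. On chromosome 5, 128000001 to 129000000, they had 74.7%, 76.4%, 88.0% and 75.5% against 91.7% and 90.8%, with high-fat replicate 3 nearest to the controls. The bins on chromosome 1, 257000001 to 258000000, and chromosome 6, 49000001 to 50000000, differed by -8.69 and -10.8 points, and on the latter high-fat replicate 1 and control replicate 3 both had 92.2%.

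**Figure D3:**
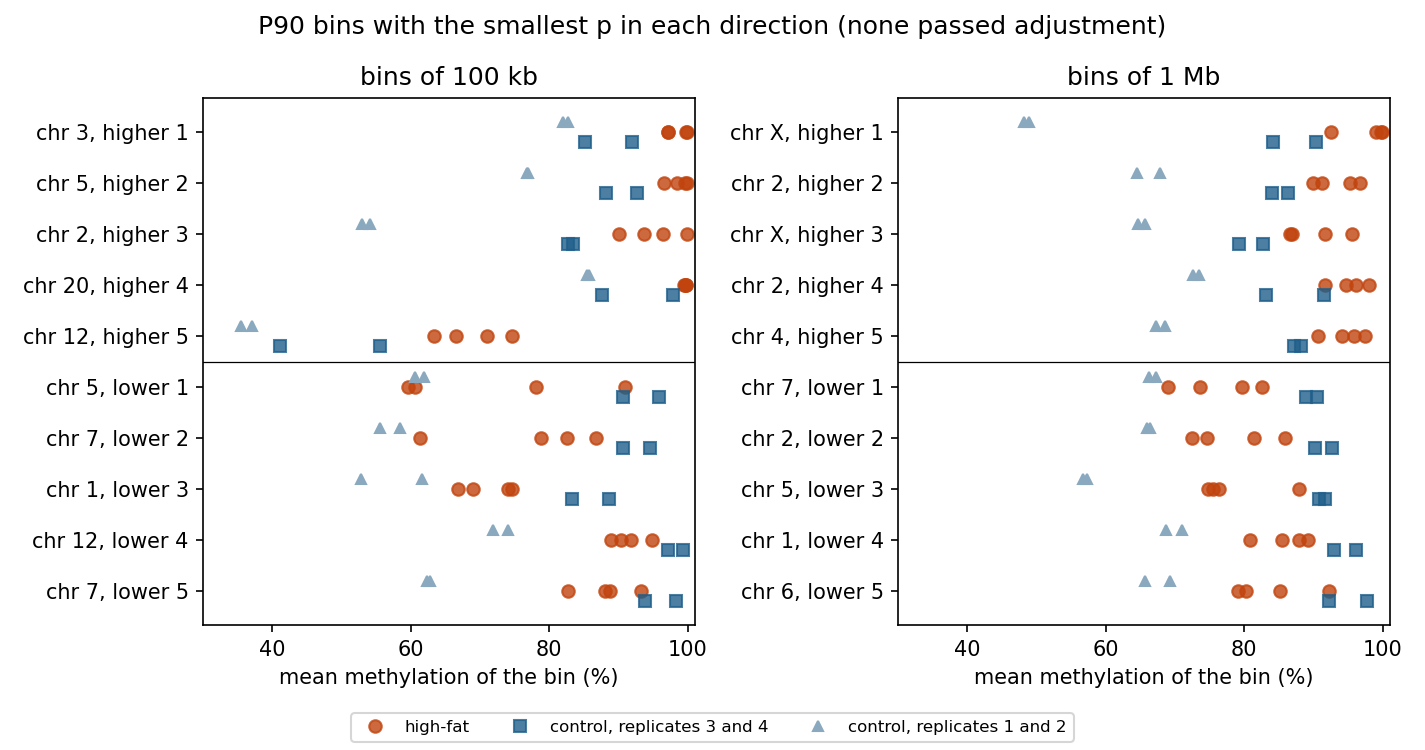
Mean methylation (%) of each P90 library in the 5 bins with the smallest p in each direction, for 100 kb and 1 Mb bins; circles are high-fat libraries, squares control replicates 3 and 4, and triangles control replicates 1 and 2. The highest difference is on chromosome 12 (20.5 points) and the lowest on chromosome 5 (-21.0 points), where the high-fat circles run from 59.5% to 91.0%.

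Differences did not run on into the next bin. Of 130 adjacent pairs of 100 kb bins, 58 (44.6%) had differences of the same sign, where the shares of positive and negative bins alone give 50.0%. Of 1309 adjacent 1 Mb pairs, 702 (53.6%) had the same sign, against 53.1% from the shares. Differences of adjacent bins correlated with r of -0.273 at 100 kb and 0.0312 at 1 Mb. Adjacent bins share libraries but no sites, and these values are descriptions.

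Averaged over the bins of each chromosome, no difference passed the test, and its sign depended on the bin size. Over 100 kb bins, 14 chromosomes were higher and 7 lower in the high-fat group, from -3.16 points on chromosome 13 to 3.09 on chromosome 2. The number of these bins ran from 2 on chromosomes 11 and 13 to 59 on chromosome 5, so some means cover little of their chromosome. The 95% interval on chromosome 13 was -9.54 to 3.21. limma called 0 of 21 (0%). The high-fat libraries lay above both controls on chromosomes 2 and 4 (9.52%) and below both on none (0%). On chromosome 2, over 7 bins, they had 90.0%, 90.1%, 90.1% and 87.3% and the controls 87.0% and 85.6%, a difference of 3.09 points (95% interval 0.631 to 5.54, limma adjusted p = 0.302). It was the 1 chromosome with an unadjusted p under 0.05. Without high-fat replicate 4 it was 3.78 points and passed (limma adjusted p = 0.00297, against 0.302 to 0.979 with all libraries or without another one), and over the 123 bins of 1 Mb on that chromosome it was -1.16 points. On chromosome 4, over 8 bins, high-fat replicate 3 had 85.3% and the other five libraries 76.4% to 77.3%. Over 1 Mb bins, 20 chromosomes were lower in the high-fat group, with chromosome 17 the lowest at -1.74 points, and 1 was higher, the X chromosome at 2.05 points (86.1% against 84.1%). The groups overlapped on all 21 chromosomes there: the high-fat libraries lay above both controls on 0 and below both on 0.

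**Figure D4:**
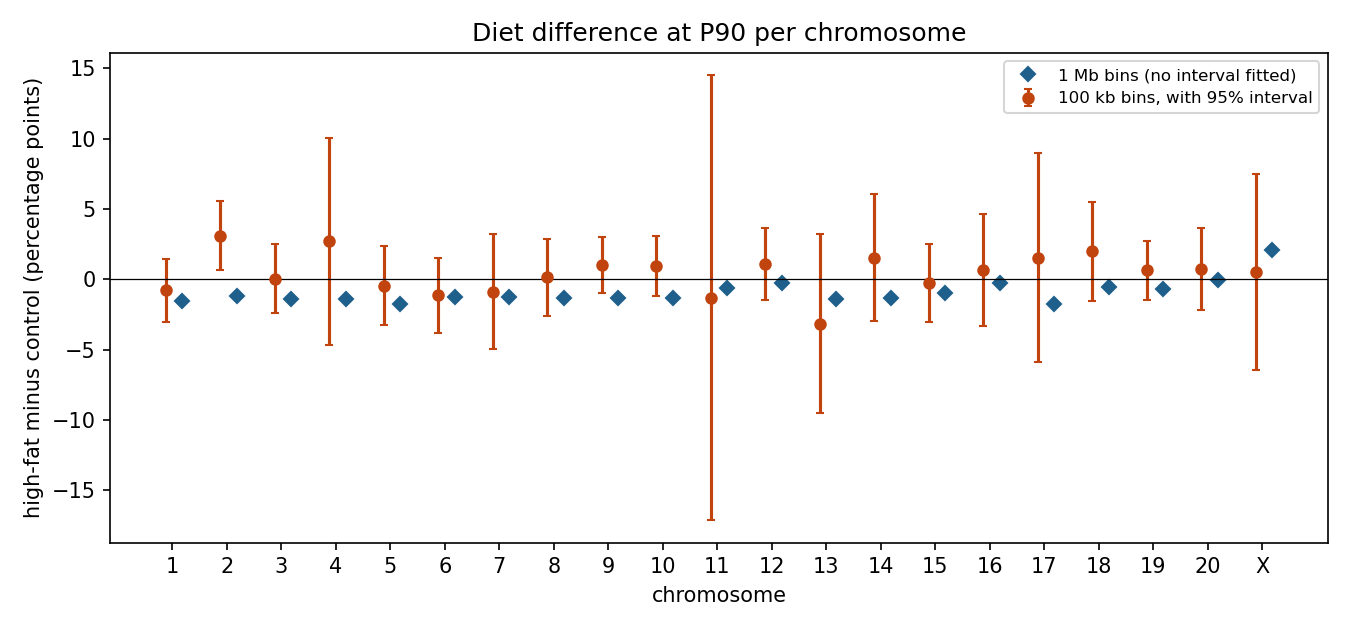
Difference in mean methylation (percentage points, high-fat minus control) for each of 21 chromosomes, over the 100 kb bins with its 95% interval from limma and over the 1 Mb bins without an interval. Over 1 Mb bins 20 chromosomes lie below 0 and the X chromosome at 2.05 above it.

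Females carry an active and an inactive X chromosome in each cell, and the CpG islands of the inactive copy are methylated while much of the rest of that copy is less so. Against the autosomes of the same library, the X chromosome was less methylated in all 6 libraries. Over 100 kb bins, 9 of which lay on the X, the X stood -5.44, -4.63, -12.2 and -11.1 points from the autosomes in the high-fat libraries and -7.51 and -9.64 in the controls, and the controls fell inside the high-fat range (difference 0.229 points, exact permutation p = 0.867). Over 1 Mb bins, a measure added after the data were seen, 52 bins lay on the X. There the high-fat libraries had -3.06, -1.24, -3.42 and -2.46 points and the controls -5.21 and -6.39. The groups did not overlap, with means of -2.54 ± 0.955 (SD, n = 4) and -5.80 ± 0.831 (SD, n = 2) and a difference of 3.26 points (exact permutation p = 0.0667, the smallest these libraries can give). It ranged from 2.67 to 3.84 with each library left out, the latter being the value within lane 6. Of the 52 X bins, 36 were higher in the high-fat group, with a median of 2.99 points, 5 had all high-fat libraries above both controls and 1 had all below. The 1596 autosomal bins had a median of -0.921 points, with 582 higher, 40 all above and 131 all below. Where sites were limited to those that control replicates 1 and 2 had also read, and the level of those controls was subtracted, 20 X bins remained and the groups overlapped: 4.65, 7.49, 8.43 and 8.46 points in the high-fat libraries against 6.33 and 4.85 in the controls (difference 1.67 points, exact permutation p = 0.400).

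The sites themselves gave another view when sorted by their level in control P90 replicates 1 and 2. Each library kept the sites it shared with that pair at 10 or more reads, 61647 to 152936 in the high-fat libraries and 221627 and 114244 in the controls. At sites of 20% to 40% in that pair, the high-fat libraries averaged 70.9%, 72.1%, 70.4% and 71.3% and control replicates 3 and 4 64.0% and 68.6%. At sites of 40% to 60% the high-fat libraries had 81.4% to 84.3% and the controls 75.7% and 80.7%. At 60% to 80% they had 90.1% to 91.8% against 86.2% and 89.9%, and at 80% to 100% they had 96.7% to 97.5% against 95.5% and 96.6%. In these 4 classes every high-fat library stood above both controls, by group differences of 4.88, 4.62, 2.83 and 0.952 points. At the least methylated sites, 0% to 20%, the groups overlapped, with 48.6%, 48.3%, 53.5% and 50.4% against 48.7% and 49.02%. Control replicate 4, of lane 6, was nearer to the high-fat libraries than control replicate 3 in each of the 4 classes.

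The high-fat libraries also held more sites at the extremes. At sites of 20% to 40% in control replicates 1 and 2, 55.4% to 63.3% of sites in the high-fat libraries were at least 95% methylated, and 37.8% and 49.7% in the controls. In the same class 12.1% to 18.3% of sites in the high-fat libraries were at most 5% methylated, and 6.17% and 9.51% in the controls. Both shares were higher in every high-fat library than in either control in all 5 classes. The share of fully methylated sites went the other way in the top class, at 77.1% to 83.8% in the high-fat libraries and 84.2% and 84.3% in the controls. Shares of this kind can depend on depth, since more reads allow values nearer to 0% and make exactly 100% harder to reach. The median depth at sites shared with that pair was 80, 100, 36 and 76 reads in the high-fat libraries and 38 and 41 in the controls. High-fat replicate 3 was thus read less deeply than both controls. The part of depth in the class means and in these shares was not tested.

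**Figure D5:**
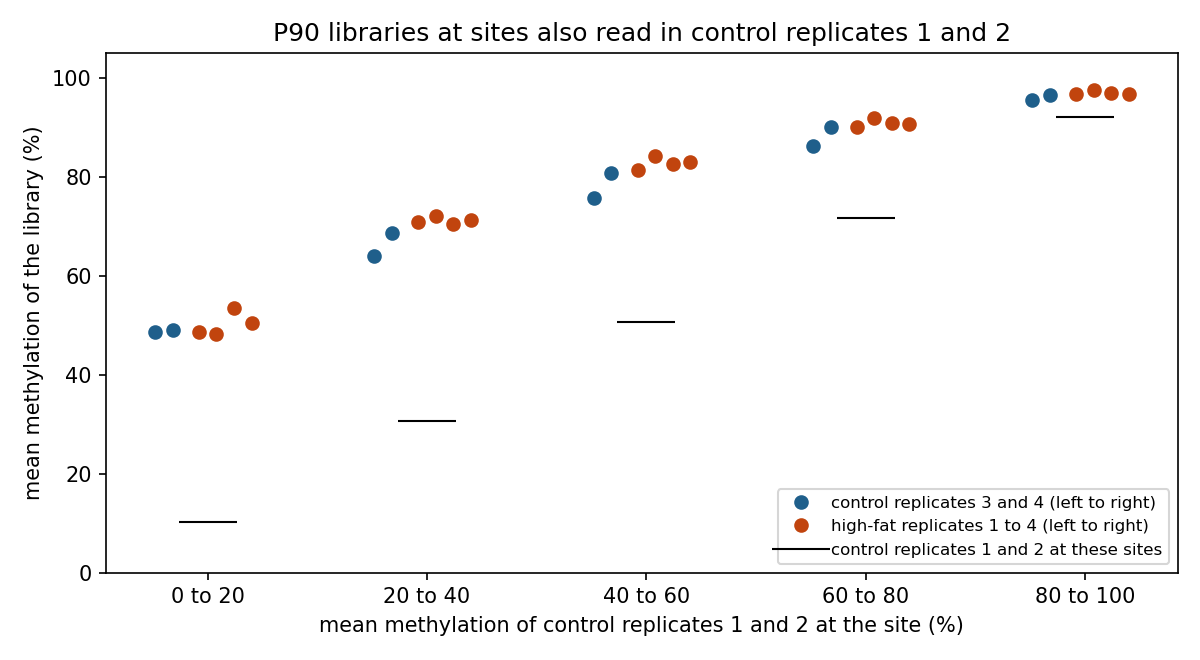
Mean methylation (%) of the sites of each library in 5 classes of their level in control P90 replicates 1 and 2; points are libraries, by group, and black dashes are the level of that control pair at the same sites. From 20% to 100% all high-fat points lie above both lane-labelled controls, by 4.88 to 0.952 points between group means, and in the class of 0% to 20% they overlap.

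Bins built from these shared sites turned the sign of the 1 Mb comparison. With the level of control replicates 1 and 2 subtracted at each site, 940 bins of 1 Mb remained, and the high-fat libraries stood 12.3, 13.8, 13.5 and 13.4 points above that level and the controls 10.5 and 12.9 points above it. High-fat replicate 1 lay between the controls, and the difference was 1.53 points (exact permutation p = 0.133). At the same sites without the subtraction, the high-fat libraries had 91.0%, 91.9%, 91.2% and 91.0% and the controls 88.1% and 90.1%. There the groups did not overlap, and the difference was 2.18 points (exact permutation p = 0.0667, the smallest possible). In the 124 bins of 100 kb that remained, the high-fat libraries had 13.4, 13.4, 13.8 and 13.7 points and the controls 11.0 and 11.5, with no overlap and a difference, after subtraction, of 2.35 points (exact permutation p = 0.0667, the smallest possible). After subtraction limma called 0 of these bins in either size, with 5 and 38 at an unadjusted p under 0.05. The other sites differed between libraries. Sites listed in neither of control replicates 1 and 2 made up 22.3%, 30.3%, 51.2% and 35.4% of the sites of the high-fat libraries, with mean levels of 83.2%, 79.98%, 93.4% and 83.0%. In control replicates 3 and 4 they made up 40.9% and 42.8%, with 92.3% and 90.5%. At such sites high-fat replicates 1, 2 and 4 were lower than both controls and high-fat replicate 3 was higher than both.

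The groups overlapped in every class of bins by level or site number. In the 4 classes of bins by their level in control replicates 1 and 2 (under 60%, 60% to 70%, 70% to 80% and above), the differences were 0.405, -0.04, 0.344 and 0.479 points at 100 kb and -1.78, -1.41, -0.722 and 0.09 points at 1 Mb. The lean towards lower values at 1 Mb was thus smaller in more methylated bins. In quartiles of site number the differences were -0.02 to 0.845 points at 100 kb and -1.31 to -0.772 at 1 Mb.

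The spread between libraries within a bin was measured by the SD. Its median over bins was 4.91 points among the 4 high-fat libraries at 100 kb and 3.75 points at 1 Mb, and among the 4 high-fat libraries of P7 in the same bins 2.48 and 2.62 points. The P7 libraries pooled more sites, with medians of 202.5 to 227 per 100 kb bin against 28 to 47 at P90. Per 1 Mb bin these were 418.5 to 479 against 52 to 102, so the spreads of the ages are not like for like. Between control replicates 3 and 4 the median SD was 2.64 and 1.72 points, but the median SD of 2 values lies lower than that of 4 values of the same true spread, so these are not set against the high-fat values. The high-fat SD was lower where more sites were pooled: 5.18 points in the 339 bins of 1 Mb whose poorest library had 20 to 29 sites, and 3.15 in the 849 where it had 50 or more. Across the 1 Mb bins, levels correlated with r of 0.532 to 0.625 among high-fat libraries, 0.583 to 0.648 between high-fat libraries and controls, and 0.706 between the 2 controls. In these values high-fat libraries did not resemble each other more than they resembled the controls. The high-fat libraries pooled fewer sites, with medians of 102, 52, 70 and 81 per 1 Mb bin in replicates 1 to 4 against 220 and 108 in the controls. Means of fewer sites are noisier, and the part of site number in these correlations was not tested.

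At postnatal day 7 (P7), before weaning, the same maternal diets were compared in 8 other libraries, 4 per group, none shared with P90. In the same bins the P7 high-fat libraries averaged 63.1% ± 2.09 (SD, n = 4) against 64.5% ± 0.909 (SD, n = 4) at 100 kb and 65.6% ± 2.34 against 67.6% ± 0.947 at 1 Mb, differences of -1.44 and -1.99 points (exact permutation p = 0.229 and 0.171). limma called 0 bins (0%) in either size, with 39 and 198 at an unadjusted p under 0.05, of which 2 were higher. The bin differences at P7 and P90 had the same sign in 270 of 500 bins (54%) and 1015 of 1648 (61.6%), with r across bins of 0.122 and 0.215. At 1 Mb the differences leaned lower at both ages, with 1030 of 1648 bins negative at P90 and a median of -1.99 points at P7. Signs match in part through that lean alone. The share it gives was not computed, so no agreement between ages is read from these counts. Of the 20 P90 bins described above, 8 had the same sign at P7 and 3 an unadjusted P7 p under 0.05. These 3 were 1 Mb bins, a size at which 198 of 1648 bins reached that p at P7. At P90, 1 of them was higher and 2 lower. The higher one, on chromosome 2 from 208000001, went the other way at P7, with -3.64 points. In the bin of chromosome 6 from 49000001, with -10.8 points at P90, the P7 difference was -6.35 points (limma adjusted p = 0.119, the smallest at P7), with 60.5% ± 0.983 against 66.9% ± 2.55 (SD, n = 4 each). In the bin of chromosome 12 from 300001, the highest at P90, it was -2.15 points. Whether the diet difference itself changed between ages was not tested, because the high-fat libraries of P90 all carry a lane and those of P7 do not.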

How the data were processed

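Per the labels' protocols, amygdala DNA was made into libraries with the Ovation RRBS Methyl-Sequencing kit. The deposited files give, for each listed CpG, the authors' methylated and unmethylated read counts, unnormalized. Positions are those of Rnor_6.0, a build named in the submitters' processing notes; for the methylation caller the entry is: not given in the sources used here. Summed over all listed sites, these counts came to 7802161 to 21333037 per library, where a read that covers several sites counts at each.

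A site's level was methylated reads over all reads, at 10 or more reads. Bin means of 6 libraries were compared with limma 3.58.1 (trend, robust) in R 4.3.3, two-sided, with Benjamini-Hochberg adjustment at 0.05 over all bins of a size. The fit was also run on simulated normal values with limma's own spread, equal in both groups. Such values meet its assumptions, so they do not show how it performs on these libraries. Single values had exact permutation tests over libraries (scipy 1.17.1; numpy 2.4.6, pandas 2.3.3, Python 3.11.15). Members, classes and tests were chosen with earlier results of these data known. Bins named are the 5 with the smallest p per direction and size, since none passed. Alternatives were other read and site minimums, a coverage cap, summed reads, merged strands, a logit scale, centring, a quasi-binomial model, edgeR 4.0.16, sites shared with control replicates 1 and 2, all 4 controls, and leaving out each library. No annotation or sequence of this build was used here, so no gene is named. The counts do not show which reads came from the same molecule, so their number is no count of molecules.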

Additional observations from a re-analysis of the deposited data

Results flagged for a closer look

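Among 44 sets of 4 high-fat libraries tested for a library far from the others, 5 held one. For independent normal values the cutoff gives about 1 in 20 by chance. These sets shared the same 4 libraries, and some were bins chosen by p, so no excess is read from this count. Over the 100 kb bins of chromosome 2, high-fat replicate 4 had 87.3% where the other three had a median of 90.1%. Over those of chromosome 4, high-fat replicate 3 had 85.3% against a median of 77.2%. Over those of chromosome 20, high-fat replicate 4 had 90.8% against 89.5%. In the 1 Mb bin of chromosome X from 128000001, high-fat replicate 4 had 92.6% against 99.7%. In the 1 Mb bin of chromosome 5 from 128000001, high-fat replicate 3 had 88.0% against 75.5%.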

How the results depend on the processing

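The call of 0 bins held in all 21 alternatives at 1 Mb and in 20 of 21 at 100 kb; without control replicate 4, 1 bin passed, so leaving out libraries gave 0 to 1 bins, and 0 to 1 chromosomes (chromosome 2 without high-fat replicate 4). The mean difference over 100 kb bins (0.276 points) turned to -0.032 with 5 reads, -0.646 with 50 sites (11 bins), -0.501 with 10 sites and -0.213 with every site weighted equally, and grew to 0.982 with 20 reads, 2.04 with summed reads, 2.35 with the level of control replicates 1 and 2 subtracted and 3.06 at the same sites without subtraction; leaving out libraries gave -0.182 to 0.531. That over 1 Mb bins (-1.10) turned to 0.806 with summed reads, 1.53 with subtraction and 2.18 without, and was -0.371 with 20 reads; leaving out libraries gave -2.12 to -0.587. The X minus autosome difference over 100 kb bins (0.229) turned to -0.225 with summed reads and -3.04 with subtraction, and grew to 0.655 with 20 reads, 2.02 with 5 reads, 1.67 with 50 sites and 2.48 with 10 sites (2574 bins); leaving out libraries gave -1.01 to 1.505. The named bin of chromosome 2 from 225000001 turned to 0.50 at those sites without subtraction and was -1.85 with it. The cause was not tested. With 1 control left, that library is assumed to vary like the high-fat group.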

Other observations

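The mitochondrial genome, which is largely free of CpG methylation, had 1.21%, 4.21%, 4.31% and 4.18% methylated reads at its listed sites in high-fat replicates 1 to 4, and 6.35% and 3.79% in control replicates 3 and 4. Control P90 replicates 1 and 2 had 0.276% and 0.285%. Only sites with a methylated read are listed, so these values are not rates over the whole molecule.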
